A study of Mus musculus with 12 samples.

Results

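Amacrine cells are the inhibitory interneurons of the inner retina, and 9 genes that mark them were followed here in cells sorted as cones: Gad1, Gad2, Slc32a1, Slc6a9, Tfap2a, Tfap2b, Pax6, Calb2 and C1ql1. They are a fixed set of names out of 19902 genes that have a probe naming 1 gene, and each of the 9 is read by exactly 1 such probe. The retinas came from C3H/HeNCrl mice of the f-RD model, in which the Pde6b rd1 mutation removes the rod phosphodiesterase subunit, rods die early and cones degenerate slowly; every group carries this mutation. An adeno-associated virus was injected under the retina at 21 to 28 days of age, with a fluorescent protein driven by mCAR, the promoter of mouse cone arrestin, and fluorescent cells were sorted and hybridised to 1 array per sample. The control construct mCAR-EGFP was measured at 110 days and at 220 days of age, 4 arrays each, with 500 sorted cells per array. The construct mCAR-eNpHR-EYFP, which makes halorhodopsin, a chloride pump worked by light, joined to EYFP, was measured at 165 days on 4 arrays with 300 sorted cells each. Construct, age and cell number differ together between the eNpHR-EYFP arrays and the others and cannot be told apart, nor can processing, since it is not known whether the arrays of each construct were normalized apart. The labels call the arrays biological replicates and do not say whether animals were pooled, so p-values measure the spread between these arrays.

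Most amacrine cells release GABA or glycine onto bipolar cells, ganglion cells and each other. GABA is made by the glutamate decarboxylases GAD67 and GAD65, both transmitters are loaded into vesicles by the transporter VGAT, and GlyT1 takes glycine back up and marks the glycinergic class. The AP-2 transcription factors and PAX6 set up and mark amacrine identity, although PAX6 is also made by ganglion and horizontal cells and at lower levels by Müller glia. Cones release glutamate and are not known to use these genes.

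All values below are log2 of the deposited probe intensity, and a difference of 1 is a doubling of intensity. The median over all probes was 2.72 to 2.83 on every array, with a 95th percentile of 6.84 to 7.08 among the EGFP arrays, below that of the eNpHR-EYFP arrays (7.44 to 7.54). No background value was used, so whether a probe near that median stands above background is unknown. The label of the cells was compared with 12 cone genes, all of which were measured. Guca1a, the cone and rod guanylate cyclase activator and the brightest of them, had a mean of 9.68 ± 2.09 at 110 days, 10.74 ± 0.41 at 220 days and 11.30 ± 0.60 in the eNpHR-EYFP sorts (SD, n = 4). The summed intensity of the 12 was 734 to 7959, 2183 to 4509 and 4133 to 12270 in these groups. That of 8 rod genes was 796 to 2800, 911 to 1783 and 1894 to 4325. The lowest cone sum at 110 days thus lay below the lowest rod sum, and purity of the sorts was not tested. Arr3, the cone arrestin gene whose promoter drives both constructs, stood at 4.58, 8.92, 9.64 and 5.29 on replicates 1 to 4 of 110 days, at 6.72, 8.16, 8.42 and 8.40 at 220 days, and at 9.41, 9.56, 10.77 and 10.85 in the eNpHR-EYFP sorts. Replicates 1 and 4 of 110 days and replicate 1 of 220 days thus lay below all other arrays in Arr3, and counts without these 3 arrays are given beside each comparison of groups and the slopes on Arr3.

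The upstream sequences of Arr3 and of members are shown because Arr3 lends its promoter to the sort and because the members' levels moved together across arrays. RefSeq, on GRCm38.p6, gave promoter windows for 7 of the 9 members, 11 windows in all, each from 250 bases before to 50 bases after a transcription start. Runs end before the annotated gene begins, and shorter stretches show 30 bases around a match. The Tfap2a stretch comes from its second window. It lies before the start used there but after the start of the first Tfap2a window, inside the annotated gene. Searched on both strands were CTAATC, a core bound by the photoreceptor homeobox factors CRX and OTX2, GCCNNNGGC, a site of AP-2 factors, and the E-boxes CACCTG and CAGCTG, which basic helix-loop-helix factors bind. No capitalised match overlaps another.

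The Arr3 run, chrX:100605247-100605479 on the plus strand, has its 2 CTAATC matches in capitals, and a match of the same core on the remaining bases of the window brings the window's count to 3. It also holds 1 CAGCTG match, left in lower case.
Arr3: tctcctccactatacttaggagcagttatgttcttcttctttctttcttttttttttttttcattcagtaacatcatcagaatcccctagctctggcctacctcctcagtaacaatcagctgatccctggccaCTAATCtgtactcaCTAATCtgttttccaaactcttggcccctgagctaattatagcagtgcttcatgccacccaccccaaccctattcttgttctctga

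The Pax6 run, chr2:105668646-105668895 on the plus strand, has an AP-2 match and a CTAATC match in capitals.
Pax6: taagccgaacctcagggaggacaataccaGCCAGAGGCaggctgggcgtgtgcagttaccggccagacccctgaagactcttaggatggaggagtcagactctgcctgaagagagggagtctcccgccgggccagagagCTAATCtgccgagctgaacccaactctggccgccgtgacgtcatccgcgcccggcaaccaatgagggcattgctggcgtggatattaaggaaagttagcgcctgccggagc

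The other matches in member windows are in capitals in the stretches of Gad1 at chr2:70562013-70562042, Slc32a1 at chr2:158610513-158610542, Gad2 at chr2:22622077-22622106 and chr2:22622196-22622225 (all plus strand), and Tfap2a at chr13:40734011-40734040 (minus strand, where the core reads in the reverse orientation).
Gad1: gaggcagtcagaCACCTGcaaaggagcccc
Slc32a1: tctagagactctCACCTGtctgtcctgttg
Gad2, first: gtgaaattGCCCTCGGCcaccattccaatc
Gad2, second: gacctggagcGCCTGTGGCtgggtcagcac
Tfap2a: tgctaatgaggcGATTAGgctgttcgcgag

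Of the 11 member windows, 2 held CTAATC, 2 the AP-2 site, 2 CACCTG and 0 CAGCTG. Among 32851 RefSeq promoter windows of 300 bases, 6.46% held CTAATC, 16.6% the AP-2 site, 20.2% CACCTG and 16.3% CAGCTG. A match is a description of letters and no evidence that a factor binds.

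Both genes of GABA synthesis varied between arrays of 1 group as well as between groups. Gad1, which encodes GAD67, stood at 5.88, 5.30, 5.04 and 5.38 at 110 days, at 6.56, 6.43, 5.69 and 6.0 at 220 days, and at 6.79, 6.51, 6.32 and 5.37 in the eNpHR-EYFP sorts. Gad2, which encodes GAD65, stood at 4.82, 3.78, 3.70 and 3.75 at 110 days, at 5.49, 5.55, 4.84 and 4.87 at 220 days, and at 4.63, 4.48, 4.43 and 4.10 in the eNpHR-EYFP sorts. Among the 110-day arrays both decarboxylase genes were highest on replicate 1, and among the eNpHR-EYFP arrays both were lowest on replicate 4, but their order over the groups differed. The mean of Gad1 went up in the order 110 days (5.40 ± 0.35), 220 days (6.17 ± 0.40) and eNpHR-EYFP (6.25 ± 0.62), with overlapping arrays throughout (SD, n = 4). The mean of Gad2 was 4.01 ± 0.54 at 110 days, 4.41 ± 0.22 in the eNpHR-EYFP sorts and 5.19 ± 0.38 at 220 days, and every 220-day array lay above every array of the other groups, narrowly so beside replicate 1 of 110 days.

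The transporters of the inhibitory transmitters differed from each other. Slc32a1, the gene of the vesicular transporter VGAT, stood at 7.27, 6.80, 6.80 and 6.94 at 110 days, at 7.90, 7.5, 7.15 and 7.36 at 220 days, and at 7.39, 7.39, 7.35 and 6.75 in the eNpHR-EYFP sorts. Its group means were 6.95 ± 0.22, 7.48 ± 0.32 and 7.22 ± 0.31, and the arrays of every pair of groups overlapped. Slc6a9, the gene of the glycine transporter GlyT1, stayed between 2.51 and 3.17 on all 12 arrays, near the array medians, with group means of 2.74 ± 0.05, 2.82 ± 0.27 and 2.83 ± 0.13. It therefore gave no order of groups beyond its spread.

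Of the AP-2 genes, Tfap2a stood at 2.74, 2.23, 2.46 and 2.72 at 110 days, at 3.10, 3.29, 2.72 and 3.0 at 220 days, and at 4.14, 3.35, 3.84 and 2.96 in the eNpHR-EYFP sorts. Tfap2b stood at 5.39, 4.38, 4.36 and 4.18 at 110 days, at 6.03, 5.99, 4.84 and 5.45 at 220 days, and at 6.53, 6.04, 6.30 and 5.17 in the eNpHR-EYFP sorts. Every eNpHR-EYFP array lay above every 110-day array in Tfap2a, whereas replicate 1 of 110 days reached into the eNpHR-EYFP range in Tfap2b. The same separation from the 110-day arrays was seen in Calb2 and C1ql1, which makes 3 members in all. The share of all genes separated in this way from 110 days is not given here, so this count has no exact background beside it. That share is at least 14.2%, the share of genes with every eNpHR-EYFP array above every array of both EGFP ages. Pax6, the homeobox gene of retinal progenitors and amacrine cells, stood at 5.84, 5.45, 4.98 and 5.20 at 110 days, at 6.94, 6.43, 5.61 and 5.83 at 220 days, and at 6.94, 6.78, 6.49 and 5.41 in the eNpHR-EYFP sorts. Replicate 4 of the eNpHR-EYFP sorts was the lowest of its group in all 3 of these transcription factor genes.

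The last members are Calb2 and C1ql1. Calb2 encodes the calcium-binding protein calretinin, which is also made by ganglion cells, and stood at 2.51, 2.10, 1.93 and 2.10 at 110 days, at 3.94, 3.09, 2.49 and 2.56 at 220 days, and at 3.34, 3.56, 3.64 and 3.0 in the eNpHR-EYFP sorts. C1ql1, a secreted synaptic organiser of the C1q family, stood at 2.96, 2.23, 2.54 and 2.61 at 110 days, at 2.41, 2.72, 2.63 and 2.58 at 220 days, and at 4.87, 4.58, 4.66 and 3.38 in the eNpHR-EYFP sorts. C1ql1 was the only member whose eNpHR-EYFP arrays all lay above all 8 EGFP arrays, while on the EGFP arrays it stayed near the array medians. Calb2 (1.93 to 2.51) and Tfap2a (2.23 to 2.74) lay below the array medians at 110 days. Whether these probes stood above background there is unknown.

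**Figure D1:**
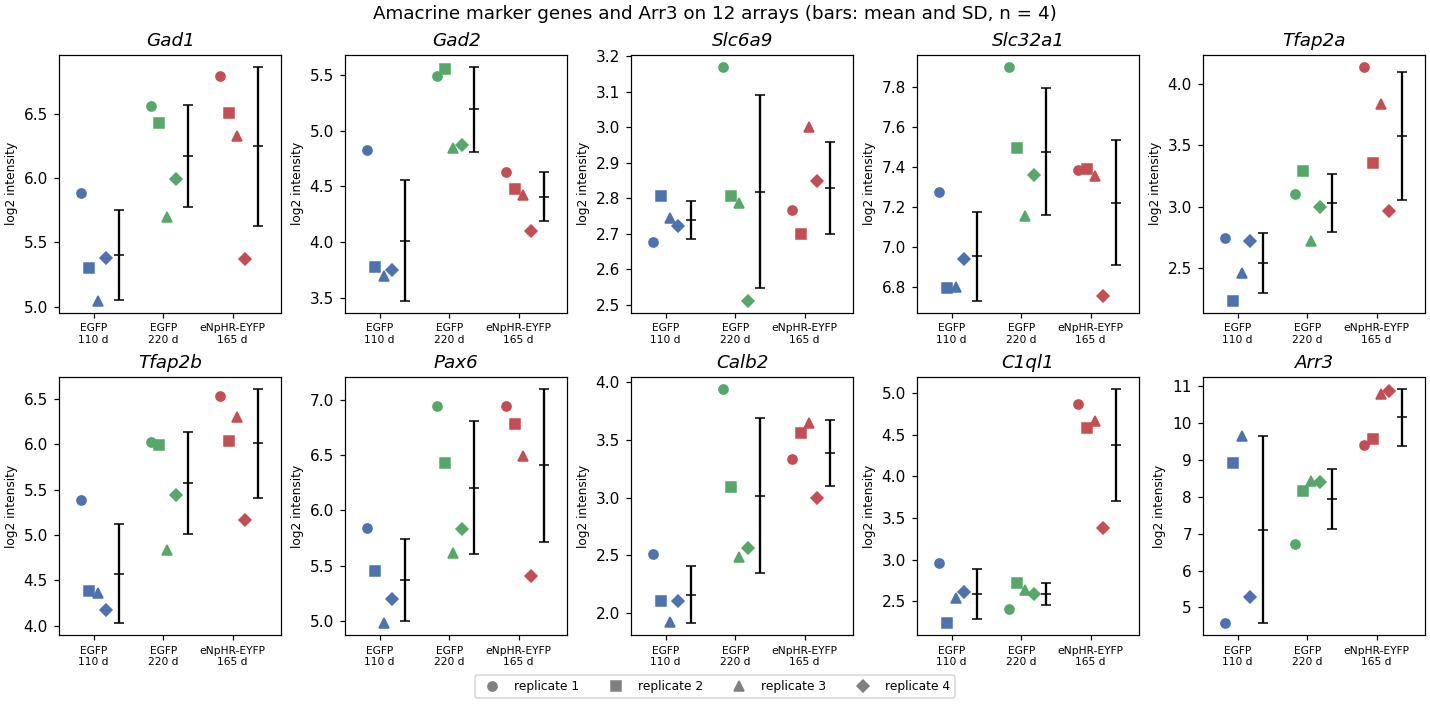
Log2 probe intensity of the 9 amacrine marker genes and of Arr3, 1 panel per gene with its own vertical scale, for EGFP at 110 days, EGFP at 220 days and eNpHR-EYFP at 165 days. Symbols are arrays by replicate number and black bars are the mean and SD of 4 arrays; C1ql1 is separated between constructs, Gad2 between ages, and Slc6a9 stays between 2.51 and 3.17.

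The first comparison, 220 against 110 days in EGFP sorts, addressed whether the set changed with age during cone degeneration. No member passed the adjusted threshold of 0.05, and neither did any probe of the array (0.0% of 34615 probes by limma with Benjamini-Hochberg adjustment). The estimates of all 9 members were above 0, with a median log2 difference of 0.77 against 0.001 over all genes. Gad2 had the largest estimate, 1.18 ± 0.26 (SE, n = 4 against 4; 95% interval 0.61 to 1.74), a 2.26-fold difference, with an adjusted p of 0.498 by limma. It was the only member whose age groups did not overlap, where 2.32% of genes had every 220-day array above every 110-day array. Before adjustment 6 members had p under 0.05, all higher at 220 days (Gad1, Gad2, Slc32a1, Tfap2b, Pax6 and Calb2), against 3.34% of probes in that direction. Tfap2b differed by 1.0 ± 0.36, Calb2 by 0.86 ± 0.28, Pax6 by 0.84 ± 0.36, Gad1 by 0.77 ± 0.30, Slc32a1 by 0.52 ± 0.19 and Tfap2a by 0.49 ± 0.23. Slc6a9, with 0.08 ± 0.13, and C1ql1, with 0.001 ± 0.28, lay near 0, and both changed sign when some arrays were left out. Without the 3 arrays lowest in Arr3 the count stayed at 0 and Gad2 differed by 1.35 (adjusted p = 0.335 by limma). In sorted pools a change in how many amacrine cells or how much of their RNA is present and a change of RNA per cell cannot be told apart, which holds for every comparison here.

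The second comparison set the eNpHR-EYFP arrays against the mean of both EGFP ages. C1ql1, Tfap2a, Tfap2b and Calb2 rose, 4 of 9 members, and none fell, where 18.7% of 34615 probes were called higher and 9.25% lower by limma. Over the 19902 genes, each read by its brightest probe as the members are, 23.0% were called higher and 10.1% lower. C1ql1 differed by 1.79 ± 0.24 (SE; 95% interval 1.26 to 2.31), 3.45-fold, with an adjusted p of 0.000269 by limma. Non-overlap in that direction, which it alone showed among the members, was seen in 14.2% of genes. Tfap2a rose by 0.79 ± 0.20 (adjusted p = 0.0124 by limma), Tfap2b by 0.93 ± 0.31 (adjusted p = 0.0432 by limma) and Calb2 by 0.80 ± 0.25 (adjusted p = 0.0308 by limma). The C1ql1 and Tfap2a calls held without each array in turn and under every other processing tried where the gene was tested. Their sizes did not stay the same. Over these settings the difference ran from 0.77 to 2.12 for C1ql1 and from 0.295 to 1.055 for Tfap2a.

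The Tfap2b and Calb2 calls were closer to the threshold. The Tfap2b call ended after quantile normalization (0.57, adjusted p = 0.188), after median centring (0.92, 0.0508), with 16 added to each intensity (0.67, 0.0579) and on the lines in place, where fewer probes were tested (0.93, 0.0627), all by limma. It also ended without replicate 2, 3 or 4 of 110 days, 3 or 4 of 220 days, or 1, 2 or 3 of eNpHR-EYFP, with adjusted p of 0.0660 to 0.135 by limma. The Calb2 call ended with 16 added (0.24, 0.0788) and without replicate 3 of 110 days, 4 of 220 days, or 1, 2 or 3 of eNpHR-EYFP, with adjusted p of 0.0510 to 0.0926 by limma. Without the 3 arrays lowest in Arr3 all 4 calls held. Quantile normalization also moved the balance over all probes from 6456 higher and 3203 lower to 4364 higher and 4118 lower.

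The GABA genes did not pass in this comparison. Gad1 differed by 0.46 ± 0.26 (95% interval -0.10 to 1.03), Gad2 by -0.19 ± 0.22 (-0.68 to 0.30), and Slc32a1 by 0.01 ± 0.16 (-0.35 to 0.37). The sign of Slc32a1 turned with the scaling, to -0.48 with a call as lower after quantile normalization (adjusted p = 0.0434 by limma), and that of Gad2 turned to 0.24 with the Arr3 level in the model. Slc6a9 differed by 0.05 ± 0.11 (-0.19 to 0.29) and Pax6 by 0.62 ± 0.31 (-0.06 to 1.30). Without eNpHR-EYFP replicate 4, the array lowest in 8 of 9 members in its group, Gad1 (0.75, adjusted p = 0.0227) and Pax6 (0.95, 0.0233) passed by limma. Arr3 itself was 2.63 ± 0.86 higher in the eNpHR-EYFP sorts (adjusted p = 0.0407 by limma), so the cone marker moved in the same direction as the 4 called members. With the Arr3 level as a covariate, a fit added after seeing the data, 4 of 9 members were called higher by limma. The part of Arr3 in their differences was not tested beyond that fit.

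Each EGFP age was also compared with the eNpHR-EYFP arrays, and these comparisons share the eNpHR-EYFP arrays. Against 110 days the same 4 genes rose, C1ql1 by 1.79 ± 0.28, Tfap2b by 1.43 ± 0.36, Calb2 by 1.22 ± 0.28 and Tfap2a by 1.03 ± 0.23, where 15.7% of probes were called higher by limma. Over genes, 3953 of 19902 were called higher. Gad1 (0.84 ± 0.30, adjusted p = 0.0613 by limma) and Pax6 (1.04 ± 0.36, 0.0565) missed the threshold, which both passed with a filter on probes below the median level (0.0447 and 0.0404). Both also passed with array weights (0.0390 and 0.0397), after averaging all probes of each gene (0.0391 and 0.0355), with the Arr3 level as a covariate (0.0216 and 0.0325) and with the replicate number as a block (0.0223 and 0.00977), by limma, which brings the 4 called members to 6. The filter and the averaging left both estimates unchanged, since each of these genes has 1 probe. Their adjustment ran over fewer tests, 17307 probes and 19902 genes, against 34615 probes in the main fit. Gad1 passed without replicate 1 of 110 days (adjusted p = 0.0447) or eNpHR-EYFP replicate 4 (0.00621), Gad2 without replicate 1 of 110 days (0.0350), and Pax6 without replicate 1 of 220 days (0.0439) or eNpHR-EYFP replicate 4 (0.00804), all by limma. Without the 3 arrays lowest in Arr3, 4 members were called.

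Against 220 days only C1ql1 rose, by 1.79 ± 0.28 with an adjusted p of 0.0011 by limma, where 14.4% of probes were called higher. Over genes, 3534 of 19902 were called higher. The estimates of Tfap2a (0.54 ± 0.23), Tfap2b (0.43 ± 0.36), Calb2 (0.37 ± 0.28), Pax6 (0.20 ± 0.36), Gad1 (0.08 ± 0.30) and Slc6a9 (0.01 ± 0.13) did not pass. Slc32a1 (-0.26 ± 0.19) did not pass either. Gad2 lay on the same side, with -0.78 ± 0.26 (95% interval -1.35 to -0.21), and all eNpHR-EYFP arrays were below all 220-day arrays, as in 9.52% of genes. Its adjusted p was 0.0519 by limma, and it passed in the fit of the compared groups alone (0.0264) and without replicate 1 of 110 days (0.0124), an array that is in neither group. Tfap2a passed without eNpHR-EYFP replicate 4 (0.0252) and Calb2 without replicate 1 of 220 days (0.0435), both by limma. Without the 3 arrays lowest in Arr3, C1ql1 and Calb2 were called higher and Gad2 lower (-0.68, adjusted p = 0.0465 by limma). Whether a member's eNpHR-EYFP difference depends on the EGFP age is the same question as the difference between the ages, for which no member passed.

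**Figure D2:**
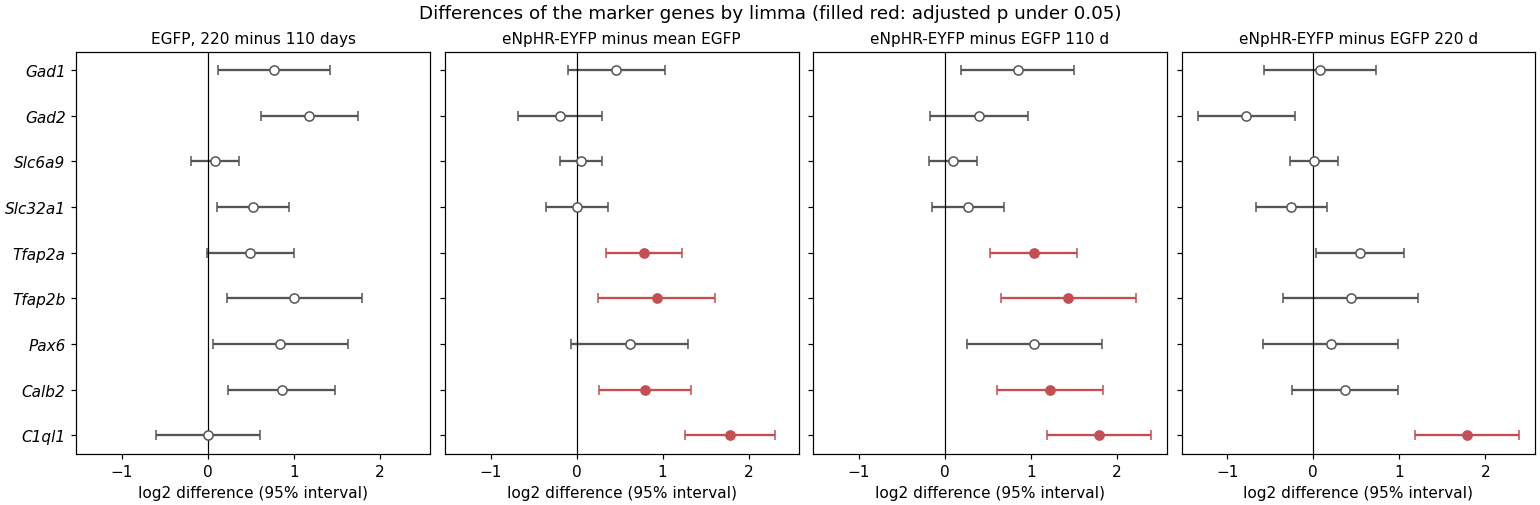
Log2 differences of the 9 members with 95% intervals by limma for 220 minus 110 days in EGFP sorts and for eNpHR-EYFP against the average of the EGFP ages, against 110 days and against 220 days. Filled red points have an adjusted p under 0.05: none between the ages, 4 in each of the next comparisons, and only C1ql1 against 220 days.

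The members moved together from array to array within groups. After each group's mean was subtracted, the median Pearson r over the 36 pairs of members was 0.71 across the 12 arrays, given as a description, since genes on 1 array share its RNA and normalization. The pair Gad1 and Pax6 had the highest value, 0.965, and Slc32a1 and Pax6 had 0.938. Over the 21 pairs without Slc6a9 and C1ql1 the median was 0.80, for the 7 pairs of C1ql1 with these genes it was 0.64, and for the 8 pairs with Slc6a9 it was 0.18. At 110 days replicate 1 was the highest in 8 of 9 members, with Slc6a9 the exception. At 220 days replicate 1 was the highest in 6 members and replicate 2 in the other 3, and replicate 3 was the lowest in 7. In the eNpHR-EYFP sorts replicate 1 was the highest in 6 members, and replicate 4 was the lowest in 8, again with Slc6a9 the exception. The mean of the 9 members on replicate 1 of 110 days was 0.42 above its group's mean, and on eNpHR-EYFP replicate 4 it was 0.61 below. On replicate 1 of 220 days and of eNpHR-EYFP it was 0.39 and 0.33 above.

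**Figure D3:**
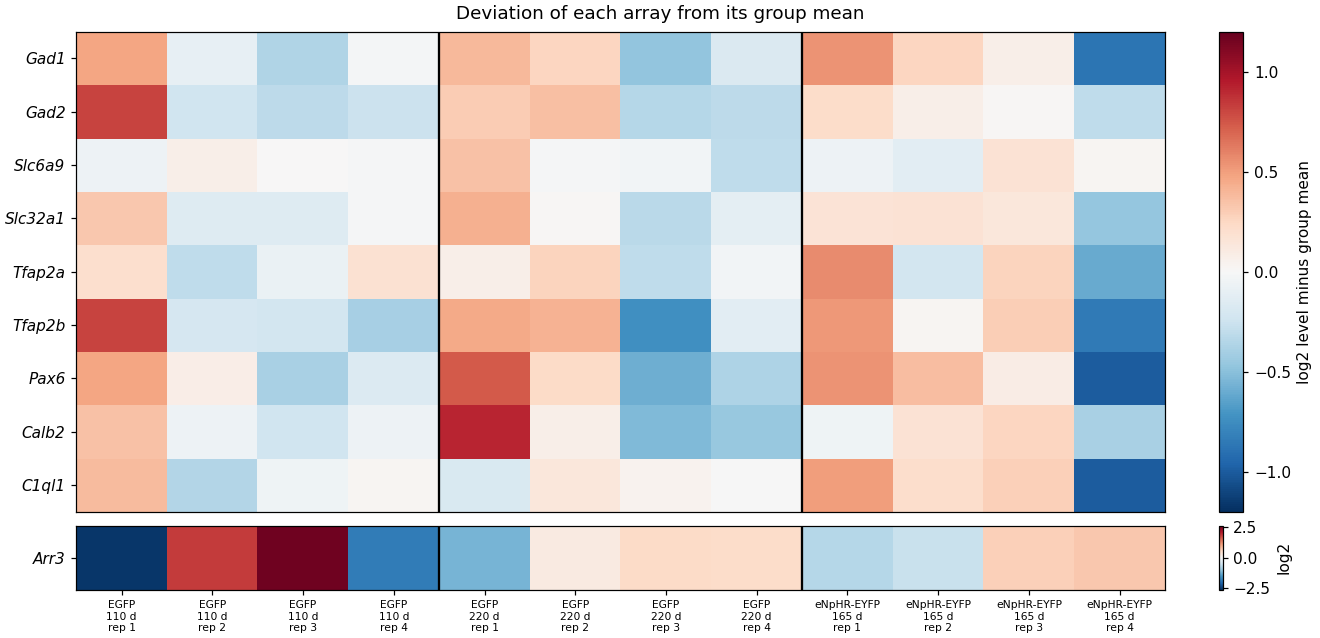
Deviation of each array's log2 level from its group mean, for the 9 members (rows) and for Arr3 (bottom row, with its own colour scale), with red above and blue below the group mean. Replicate 1 of each group is red and eNpHR-EYFP replicate 4 blue in most members, while Arr3 is blue on the replicate 1 arrays and red on eNpHR-EYFP replicate 4. Other arrays go the other way: eNpHR-EYFP replicate 3 is above its group mean in Arr3 and in all 9 members. Replicate 4 of 110 days is blue in Arr3 and above its group mean in only 2 of 9 members.

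Whether these deviations ran against the cone signal was addressed with Arr3. In a limma model with the 3 groups and the array's Arr3 level, the slopes of all 9 members were below 0, as were those of 50.8% of 34614 probes. Over genes, 10753 of 19901 had a slope below 0. None of the members passed after adjustment, where 0.246% of probes did (78 higher and 7 lower with Arr3). Gad1 changed by -0.18 ± 0.07 per log2 unit of Arr3 (SE), Gad2 by -0.16 ± 0.06 and Slc32a1 by -0.11 ± 0.05, and these 3 had an unadjusted p under 0.05, against 3.82% of probes in that direction. Their adjusted p was 0.470 to 0.526 by limma. Pax6 (-0.19 ± 0.09), Tfap2b (-0.17 ± 0.10), Calb2 (-0.14 ± 0.08), C1ql1 (-0.11 ± 0.08) and Tfap2a (-0.10 ± 0.06) had intervals that include 0, and Slc6a9 had a slope of -0.001 ± 0.04 that changed sign with the scaling. The count of calls was 0 under each alternative tried, including without the 3 arrays lowest in Arr3. Without those arrays the slopes were larger in size for 8 members, at -0.75 for Pax6, -0.64 for Gad1, -0.47 for Tfap2b, -0.45 for C1ql1, -0.26 for Gad2 and for Tfap2a, -0.25 for Slc32a1 and -0.16 for Calb2, and 0.09 for Slc6a9, with adjusted p of 0.296 to 0.795 by limma.

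Over the 8 EGFP arrays alone the correlation with Arr3 was weak. Pearson's r was below 0 for all 9 members, from -0.06 for Slc6a9 to -0.55 for C1ql1, where 54.1% of 19901 genes had an r below 0. For Gad1 r was -0.26 and rho -0.55 (exact permutation p = 0.535 and 0.171, two-sided), and for C1ql1 r was -0.55 and rho -0.55 (exact permutation p = 0.164 and 0.171). The other exact permutation p of r lay between those of C1ql1 and Slc6a9 (0.885). Adjusted over all genes the p of r was 0.789 to 0.988 for the 9 members, and 0 of 19901 genes passed, with 3.91% at an unadjusted exact p under 0.05 and a negative r.

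The relation depended on replicates 1 and 4 of 110 days, the arrays farthest from the median in Arr3. Without them r was -0.67 to -0.97 for 8 members, with Calb2 at -0.97, Pax6 at -0.95 and Slc32a1 at -0.94, and 0.02 for C1ql1. The 6 arrays left are 2 of 110 days and 4 of 220 days, so age enters these values. With each age's mean subtracted over all 8 arrays, r was -0.12 to -0.70. Without replicate 3 of 110 days only 5 members kept an r below 0. Pooling all 12 arrays left 2 members with an r below 0, and the eNpHR-EYFP arrays were high in Arr3 and in several members. With the mean of the other cone genes in place of Arr3, all 9 members had an r below 0 over the EGFP arrays, from -0.07 to -0.55.

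**Figure D4:**
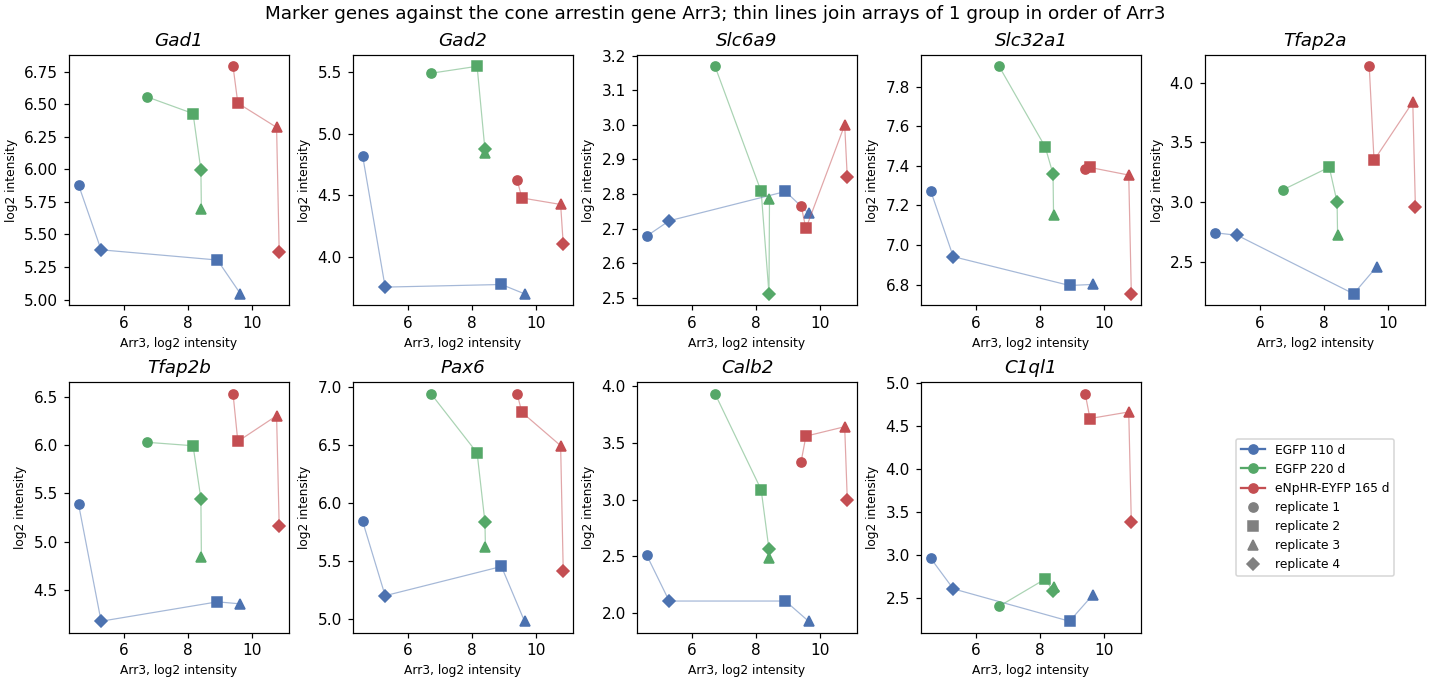
Log2 intensity of each member (vertical) against that of Arr3 (horizontal) on 12 arrays, coloured by group, with thin lines joining the arrays of a group in order of Arr3. Within groups most lines run downward, but the EGFP arrays at 110 days span Arr3 from 4.58 to 9.64 with little change in most members beyond replicate 1.

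Other genes of inhibitory transmission were followed as a list. Of 25 listed genes that handle GABA and glycine, 20 were measured, and 3 rose and 1 fell in the eNpHR-EYFP sorts against the mean of both EGFP ages, with a median of 0.11 against 0.07 over all genes. Of all 19902 genes, 23.0% were called higher and 10.1% lower in this comparison by limma, so the list's counts lie below these shares. Abat, the GABA transaminase that breaks GABA down, rose by 0.48 ± 0.10, Nptn, a cell adhesion protein of the neuroplastin family that associates with GABA receptors, by 0.58 ± 0.14, and Glrb, the beta subunit of the glycine receptor, by 0.48 ± 0.16. Gphn, which encodes the scaffold gephyrin at inhibitory synapses, fell by 0.40 on the log2 scale, from 4.16 to 3.76. Between the ages and with the Arr3 level 0 of these 20 passed. The steepest negative slopes with Arr3 were those of Gabrb1 (-0.21 ± 0.07), Glrb (-0.11 ± 0.05) and Glra2 (-0.08 ± 0.03), subunits of GABA and glycine receptors.

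Among 23 measured of 25 listed transcription factor and regulator genes of amacrine cells, 6 rose and 1 fell in the eNpHR-EYFP sorts, with a median of 0.02. The count of 6 is near the 23.0% of all genes called higher and that of 1 below the 10.1% called lower. Tfap2c, another AP-2 gene, rose by 0.90 ± 0.09 (adjusted p = 5.17e-05 by limma), from a range of 1.85 to 2.23 on the EGFP arrays, below their medians, to 2.85 to 3.17. Meis2, a homeobox gene of GABAergic amacrine cells, rose by 0.88 ± 0.22 and Nr4a2, a nuclear receptor gene, by 0.61 ± 0.10. Satb1, a chromatin organiser, fell by 0.51 on the log2 scale. Isl1, which also marks bipolar and ganglion cells, differed by 1.71 ± 0.30 between 220 and 110 days, with an adjusted p of 0.241 by limma. None of the 23 passed between the ages or with Arr3, where the steepest slopes were those of Nfix (-0.34 ± 0.11), Nfib (-0.12 ± 0.14) and Isl1 (-0.11 ± 0.09).

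Of 29 measured of 30 listed genes of amacrine subtypes, 5 rose and 0 fell in the eNpHR-EYFP sorts, with a median of 0.14, both counts below the shares over all genes (23.0% and 10.1%). Cck, the neuropeptide cholecystokinin, rose by 2.44 ± 0.38, Calb1, a calcium-binding protein gene that also marks horizontal cells, by 2.20 ± 0.38, Cbln2, a synaptic organiser of the C1q superfamily like C1ql1, by 1.42 ± 0.34, and Sdk1, a cell adhesion gene, by 0.61 ± 0.09. Npy, the neuropeptide Y gene, was the only listed amacrine gene called with Arr3, falling by 0.53 on the log2 scale per log2 unit (SE 0.07, adjusted p = 0.0215 by limma). The call ended without replicate 1, 3 or 4 of 110 days (adjusted p = 0.104, 0.221 and 0.0935), without the 3 arrays lowest in Arr3 (slope -0.60 ± 0.28, 0.474), over the EGFP arrays alone (0.0639) and with the replicate number as a block (0.329), all by limma. Npy stood at 6.98, 5.09, 3.81 and 6.61 at 110 days, where the 2 arrays low in Arr3 were the high ones, at 6.67, 6.57, 5.55 and 6.06 at 220 days, and at 7.57, 6.96, 7.16 and 6.49 in the eNpHR-EYFP sorts. Tac1, the substance P precursor gene, had a slope of -0.49 ± 0.11 (adjusted p = 0.148 by limma) and Penk, the proenkephalin gene, one of -0.33 ± 0.16. The slope of the other listed subtype genes was below 0 in most cases, 24 of 29 in all including Npy. Beside this, it was below 0 in 10753 of 19901 genes, in 15 of the 20 GABA and glycine genes and in 17 of the 23 transcription factor genes. Of the cell type lists below, it was so in 9 of 10 Müller glia genes, 9 of 10 bipolar genes and 0 of 7 horizontal cell genes.

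Markers of other retinal cells were measured beside the 9 members. The summed intensity of the 9 members was 231 to 368 on the arrays of 110 days, 326 to 605 at 220 days and 278 to 582 in the eNpHR-EYFP sorts. That of 10 Müller glia genes was 812 to 1487, 1179 to 1409 and 1629 to 3702, and that of 10 bipolar cell genes 384 to 838, 472 to 980 and 308 to 770. In the eNpHR-EYFP sorts against the mean of both EGFP ages, 2 of 10 Müller glia genes rose and 0 fell, 1 of 10 bipolar genes rose and 1 fell, 4 of 9 ganglion cell genes rose and 0 fell, and 3 of 7 horizontal cell genes rose and 1 fell. The brightest ganglion cell gene, Thy1, had a mean of 3.96 ± 0.23 at 110 days, 4.27 ± 0.44 at 220 days and 5.07 ± 0.71 in the eNpHR-EYFP sorts. The brightest horizontal cell gene, Onecut2, had means of 4.47 ± 0.16, 4.37 ± 0.30 and 4.13 ± 0.63. Of 10 microglia genes 4 rose and 1 fell, and of 8 genes of the pigment epithelium 2 rose and 0 fell. These lists are short, and the counts stand beside 23.0% of all genes called higher and 10.1% lower. The part of these cells in the members' differences was not tested.

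Array by array within groups, the mean of the 9 members was most like the mean of the amacrine subtype genes (r = 0.87 over 12 arrays after subtracting group means), followed by the GABA and glycine genes (0.66), the amacrine transcription factors (0.61), Müller glia genes (0.57) and bipolar genes (0.36). It was least like the cone genes (-0.64) and the rod genes (-0.55). These are descriptions over arrays that share RNA and normalization between genes. Outside all lists, the 8 genes whose deviations were most like the mean of the members were Atp6v1g2, Cebpzos, Ly6e, Rgs2, Stmn4, Hpgd, Cbln1 and Gprc5b, with r of 0.95 to 0.96 over 12 arrays among 9857 candidate genes. Cbln1, a cerebellin of the C1q superfamily, stood at 6.06, 4.99, 5.04 and 5.45 at 110 days, at 5.96, 6.15, 4.86 and 4.84 at 220 days, and at 6.49, 6.52, 6.2 and 4.61 in the eNpHR-EYFP sorts.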

How the data were processed

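Labelled RNA of 12 sorts was measured on Affymetrix mouse arrays. The authors deposited a table of linear intensities, 34760 probes by 12 arrays, made with RMA and affy per the submitters' processing notes, with versions and the arrays normalized together not given in the sources used here. RMA compresses low values, so differences of dim probes may be understated, which was not tested here. Whether EGFP and eNpHR-EYFP arrays were processed apart is not known, and their columns hold unequal numbers of values, so processing and construct cannot be told apart. The 8 EGFP columns held 34729 values and stood beside the wrong probes from data line 13588 on. They were aligned to the eNpHR-EYFP columns with a forward-backward alignment that allows only for missing lines (posterior at least 0.999). This moved 21031 lines by 3 to 31, left out 114 and kept 34615 probes, of which 13584 were in place, and raised the median correlation of EGFP with eNpHR-EYFP arrays from 0.421 to 0.944. On simulated losses within eNpHR-EYFP arrays 100.0% of the kept lines were right. Those arrays share construct and age, so the share need not carry over to the EGFP columns. Tfap2a, Tfap2b and C1ql1 stood in place. Gad1, Gad2, Slc32a1 and Pax6 were moved by 7 lines, Slc6a9 by 9, Calb2 by 18 and Arr3 by 25.

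The log2 of the deposited intensities was used, without pseudocount or filter. Probes were named from the platform annotation (21640 name 1 gene, 1321 several, 11799 none), a gene being its brightest probe that names 1 gene. The fits were made in R 4.3.3 (limma 3.58.1) as a means model of the 3 groups, or that model with the Arr3 level. Benjamini-Hochberg adjustment ran over all probes with a threshold of 0.05. Correlations used every order of the 8 EGFP arrays in Python 3.11.15 with numpy 2.4.6, two-sided. The limma script was tested on simulated data. The members and lists were chosen with earlier results of these data known. Genes named from the other lists are the 4 with the smallest p between constructs and the 3 steepest negative Arr3 slopes per list, of which the text gives most. Alternatives were quantile normalization, array weights, a filter at the median level, the replicate number as a block, a robust trended prior, median centring, 16 added to intensities, the mean of a gene's probes, lines in place, compared groups only, the cone list in place of Arr3, and leaving out each array. Leaving out the 3 EGFP arrays lowest in Arr3 and the Arr3 level as a covariate of the group comparisons were added after seeing the data.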

Additional observations from a re-analysis of the deposited data

Results flagged for a closer look

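In 4 of 30 groups of 4 arrays (9 members and Arr3, 3 groups each) 1 array lay far from the others by Dixon's ratio of gap to range, where chance gives about 1 in 20. Replicate 1 of 110 days was the high array in Gad2 (4.82, gap 0.933 of the range) and in Tfap2b (5.39, 0.834). Replicate 4 of the eNpHR-EYFP sorts was the low array in Slc32a1 (6.75, 0.940). Replicate 1 of 220 days was the low array in Arr3 (6.72, 0.847).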

How the results depend on the processing

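Between the ages and with the Arr3 level, 0 members were called under every alternative. Against the mean of both EGFP ages the 4 calls became 2 with 16 added to intensities and 2 on the lines in place (3 members tested there), and ranged from 2 to 6 without 1 array. Quantile normalization called 1 member lower. Against 220 days 2 were called higher without the 3 EGFP arrays lowest in Arr3 (1 to 2 without 1 array), and the 0 called lower became 1 with the filter, with the mean of probes, with the compared groups only and without those 3 arrays, 2 after quantile normalization, and 0 to 1 without 1 array. All of these held Gad2, and the quantile count also Slc32a1 (-0.72, adjusted p = 0.0187 by limma). With the filter and the mean of probes the Gad2 estimate stayed at -0.78 and fewer tests were adjusted. Members with an r below 0 to Arr3 numbered 2 over all 12 arrays and 5 to 9 without 1 array. Signs turned for values near 0. Between the ages these were Slc6a9 (-0.0741 without the 3 arrays, -0.0364 to 0.183 without 1 array) and C1ql1 (-0.00343 with 16 added, -0.116 to 0.127 without 1 array). Against the mean of both ages these were Gad2 (0.24 with Arr3 as a covariate), Slc32a1 (-0.48 after quantile normalization, -0.00459 after median centring, -0.0509 to 0.162 without 1 array) and Slc6a9 (-0.00704 to 0.109 without 1 array). Against 110 days Slc32a1 turned (-0.24, quantile). Against 220 days Gad1 (-0.31, quantile, and -0.103 to 0.372 without 1 array), Pax6 (-0.21, quantile) and Slc6a9 (-0.00271 quantile, -0.0165 median centring, -0.000122 with 16 added, -0.0928 to 0.127 without 1 array) turned. The Arr3 slope of Slc6a9 turned to 0.00101 after quantile normalization, 0.00629 after median centring, 0.00435 with array weights, 0.00946 with the replicate block, 0.0096 with the cone list and 0.094 without the 3 arrays, and ran from -0.0156 to 0.0254 without 1 array. The cause of these changes was not tested. In all, 1067 of the single-gene values kept their direction and side of the threshold.

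Same-number correlations of deviations were low, -0.04 to 0.14. Replicate 1 was closest to its own number in every pair of groups (0.07, 0.14 and 0.13), whereas most arrays of the other numbers were not. With the replicate number as a block, 5 members were called higher against the mean of both ages (Pax6 added, adjusted p = 0.0374 by limma), 6 against 110 days, and 1 higher and 1 lower against 220 days (Gad2, adjusted p = 0.0179 by limma). With 4 arrays per group and no background value, small differences of dim probes such as Slc6a9 could not be resolved.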
